A study of Homo sapiens with 4 samples.

Results

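The Krüppel-like factors (KLFs) examined here were KLF2, KLF3, KLF4, KLF6, KLF7, KLF9, KLF10, KLF11, KLF12 and KLF13, measured in Jurkat, a human leukaemia cell line of T cell origin. Every probe set whose only gene symbol in the platform annotation was one of these 10 was taken, which gave 38 probe sets of 41091 with 1 symbol. Of the 38, 29 reached a signal of 56.4, the median of all signals, on at least 1 array. All 10 genes had such a probe set, among 13717 genes that did, and each gene was represented by the brightest one. There were 4 groups of 1 array each. They were a control line given solvent, that line given 10 ng/ml PMA and 0.5 uM ionomycin for 3 h, a line with a short hairpin RNA that targets IKKε, called shIKKE, given solvent, and that line given the same stimulation. How the lines were derived is not stated in the labels. The titles name the construct of control cells a vector and the design text names it a control hairpin. PMA activates protein kinase C and ionomycin admits calcium, so the pair bypasses the T cell receptor. With 1 array per group there is no replicate error, and differences between arrays are given as values with no p-value.

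KLFs are zinc finger transcription factors that bind GC-rich DNA, at CACCC sequences and GC boxes, which they share with the related SP factors. They fall into classes by the partners they bind: KLF3 and KLF12 recruit the CtBP corepressors, KLF2, KLF4, KLF6 and KLF7 act mainly as activators, and KLF9, KLF10, KLF11 and KLF13 bind the corepressor Sin3A. In T cells KLF2 is known for keeping resting cells quiescent and for driving the trafficking gene S1PR1, KLF10 is a TGF-β-inducible early gene, and KLF13 is a regulator of the chemokine gene CCL5.

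The arrays had been scaled to 1 target, and their median signals lay between 48.8 and 69.1, both stimulated arrays being the higher. As a check of RNA integrity, the ratio of 5′ to 3′ probe set signals was 0.244 to 0.401 for ACTB and 1.04 to 1.17 for GAPDH. The ACTB ratio was lowest on the control solvent array (0.244), followed by shIKKE stimulated (0.266), shIKKE solvent (0.339) and control stimulated (0.401). IKBKE, which encodes IKKε, read 340 in control cells and 180 in shIKKE cells with solvent, and 520 and 248 with stimulation, by its brighter probe set. The dimmer probe set gave 218 in control cells against 287 in shIKKE cells at rest, opposite in direction to the brighter one, and 311 against 280 after stimulation. All 12 T cell markers of the list used here passed the filter, with summed signals of 73237 to 81115. The summed signals of the markers that passed were 673 to 744 for B cells (3 of 6), 78.5 to 259 for myeloid cells (3 of 8), 208 to 339 for erythroid cells (2 of 6) and 126 to 275 for epithelial cells (2 of 6).

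The promoters of KLF2, KLF4 and KLF13 are shown because these genes differed between the lines in level or response and each has a single start site in the table. Each window runs from 250 bases before to 50 after the annotated start in RefSeq on build GRCh38.p14, in the gene's own direction. The windows are chr19:16324576-16324875 on the plus strand for KLF2, chr9:107489720-107490019 on the minus strand for KLF4 and chr15:31326585-31326884 on the plus strand for KLF13. Capitals mark GGGCGG and CACCC on either strand, and the MEF2 site, where present.
KLF2: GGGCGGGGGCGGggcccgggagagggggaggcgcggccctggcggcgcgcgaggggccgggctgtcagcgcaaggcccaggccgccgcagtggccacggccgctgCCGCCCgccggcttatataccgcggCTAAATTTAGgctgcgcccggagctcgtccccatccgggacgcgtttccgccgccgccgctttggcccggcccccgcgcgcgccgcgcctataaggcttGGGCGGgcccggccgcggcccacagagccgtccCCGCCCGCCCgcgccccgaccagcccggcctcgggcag
KLF4: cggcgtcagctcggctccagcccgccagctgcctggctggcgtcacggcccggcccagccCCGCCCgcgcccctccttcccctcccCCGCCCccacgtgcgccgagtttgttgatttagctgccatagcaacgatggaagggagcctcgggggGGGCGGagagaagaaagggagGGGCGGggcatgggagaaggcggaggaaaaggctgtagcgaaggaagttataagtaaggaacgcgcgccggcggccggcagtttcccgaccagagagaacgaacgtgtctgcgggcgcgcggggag
KLF13: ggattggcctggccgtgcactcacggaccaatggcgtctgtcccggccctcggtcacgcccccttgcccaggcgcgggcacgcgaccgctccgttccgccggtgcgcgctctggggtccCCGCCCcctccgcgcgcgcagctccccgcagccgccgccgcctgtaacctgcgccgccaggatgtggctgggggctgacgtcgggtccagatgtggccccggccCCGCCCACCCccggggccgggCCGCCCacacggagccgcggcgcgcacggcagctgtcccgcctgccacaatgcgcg
The KLF2 window held 6 matches to GGGCGG, of which those nearest the window's end overlap, no CACCC, and 1 match to the MEF2 site, 120 to 111 bases before the start. MEF2 factors are known activators of KLF2 downstream of the kinase ERK5. The KLF4 window held 4 matches to GGGCGG and no CACCC. The KLF13 window held 3 matches to GGGCGG and 1 to CACCC, which overlaps a GGGCGG match by its first base. TATAA, searched on the gene's strand, began 31 bases before the start in KLF2 and 28 before it in KLF4, and was not found in the KLF13 window. Among 35116 windows of the same length, 45.0% held GGGCGG, 59.9% held CACCC, 1.86% held the MEF2 site and 14.8% held TATAA. GC content was 80.7% for KLF2, 69.0% for KLF4 and 78.3% for KLF13, against a median of 58.7%.

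In all, 15 windows of 8 genes were searched, and KLF3 and KLF10 had none in the table. The cyclic AMP response element TGACGTCA, on either strand, was found in 1 of them, a window of KLF11, and in 1.85% of all windows. Its shorter form TGACG, which every full element contains, was found in windows of KLF4, KLF11 and KLF13 and in 24.6% of all windows. The CArG box bound by serum response factor was found in 1 of the 15, a window of KLF7, and in 1.29% of all windows. These matches describe the letters in the windows, and binding was not measured.

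With stimulation in control cells, KLF2, KLF3 and KLF10 were at least 2-fold higher, KLF4 was at least 2-fold lower and the other 6 lay within 2-fold. Changes are differences of log2(signal + 14.1), a scale that compresses changes at low signals, and a log2 change of at least 1 counts as at least 2-fold. In bulk RNA, fewer cells with a transcript and less of it per cell cannot be told apart. Over all genes 7.57% were as much higher and 6.44% as much lower, and the median log2 change was 0.42 for the KLFs and -0.07 for all genes. In shIKKE cells, KLF3 and KLF10 were at least 2-fold higher, none was lower and 8 lay within 2-fold, where 10.3% of all genes were higher and 2.68% lower. The median there was 0.49 for the KLFs and -0.01 for all genes. In each line most of the 10 KLFs thus stayed within 2-fold, and those past it differed in direction or size. Over all genes past 2-fold, the share that was higher depended on the scaling: it was 54.0% in control cells and 79.4% in shIKKE cells as deposited, and 42.6% and 59.5% after quantile normalization.

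Between the lines, with solvent, KLF3 was at least 2-fold higher in shIKKE cells (4.34% of all genes were), KLF4 and KLF10 were at least 2-fold lower (6.68%) and 7 lay within 2-fold. With stimulation, KLF3 was at least 2-fold higher (5.99%) and KLF13 at least 2-fold lower (2.37%), and 8 lay within 2-fold. The median of the KLFs was -0.21 with solvent and -0.15 with stimulation, against -0.05 and 0.03 over all genes. As a signed log2 change, the shIKKE response was at least 1 above the control response for KLF4 and KLF10 (11.4% of all genes). It was at least 1 below it for KLF2 (4.67%). KLF4 was lower with stimulation in both lines, so its positive difference is a smaller decrease in shIKKE cells (log2 -0.56 against -1.93). These comparisons share arrays: the control solvent array, for instance, enters the response of control cells and the solvent difference between the lines with opposite sign.

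**Figure D1:**
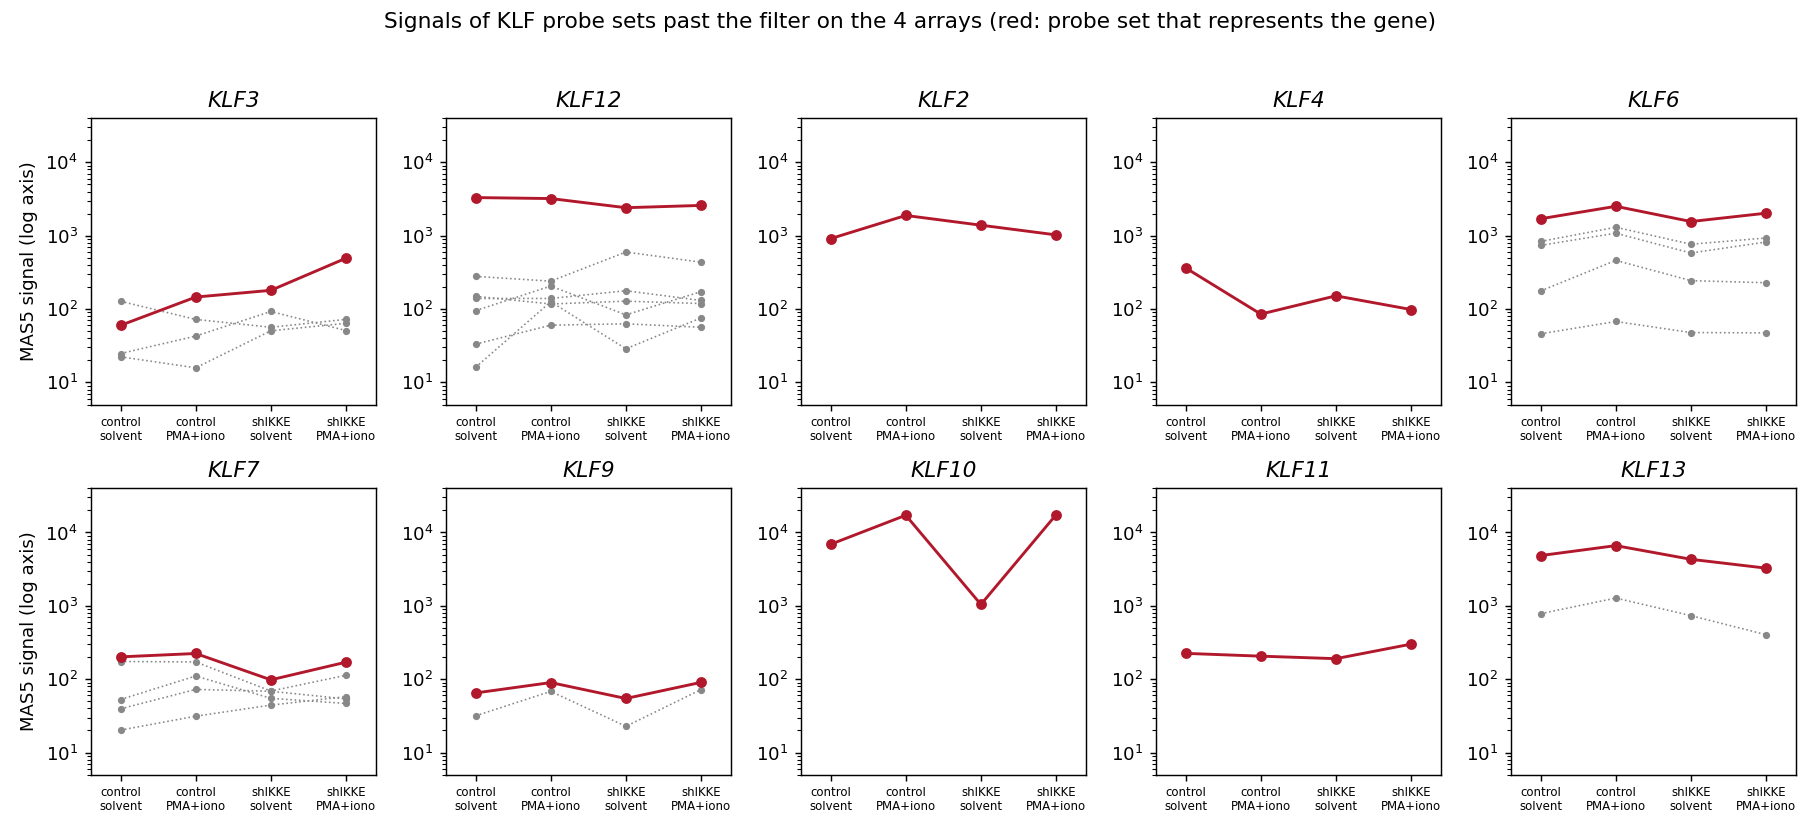
MAS5 signal (log axis) of the 29 KLF probe sets past the filter on the 4 arrays, 1 panel per gene and 1 point per array; red is the probe set that represents the gene and grey dotted lines are its other probe sets. KLF10 was lowest with solvent in shIKKE cells (1044) and between 17179 and 17419 on the stimulated arrays, while the probe sets of KLF3 and KLF12 did not run in parallel.

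**Figure D2:**
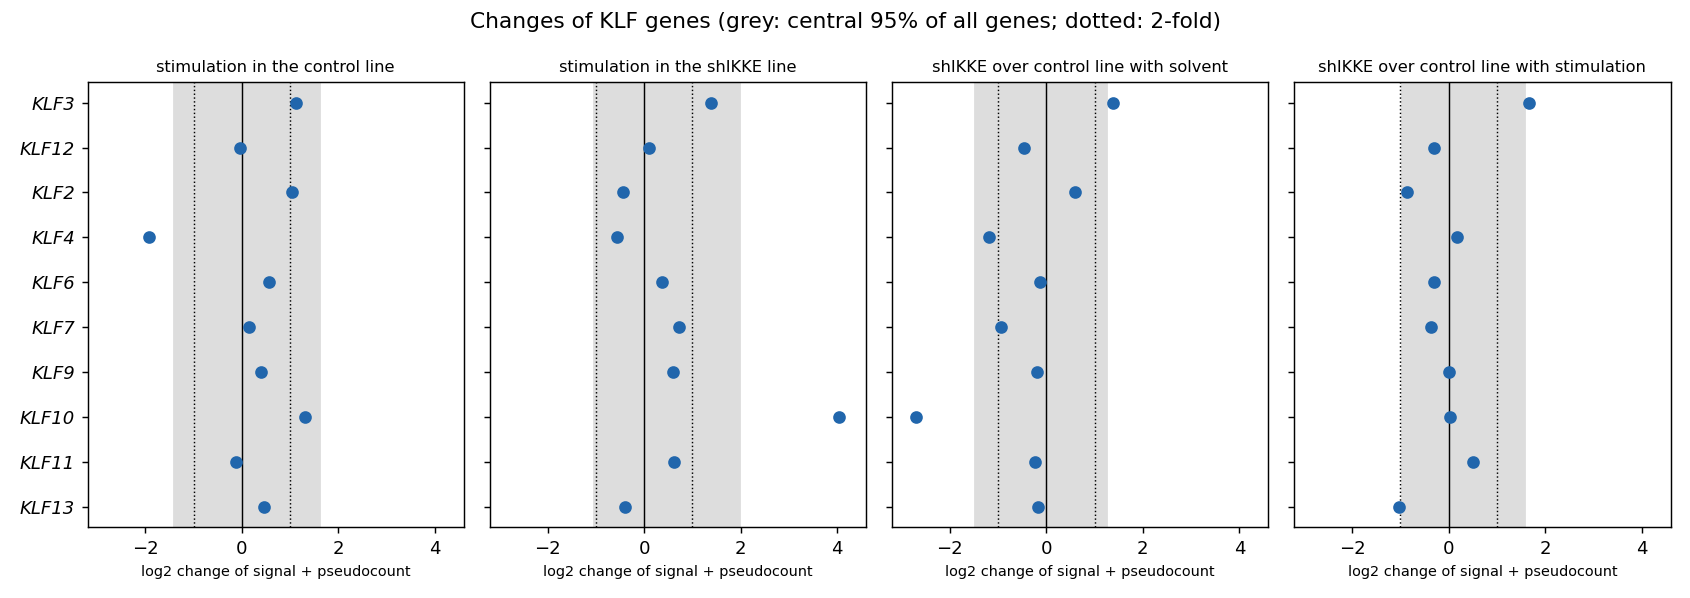
Log2 change of each KLF gene (points) in 4 comparisons; the grey band holds the central 95% of all 13717 genes, and dotted lines mark 2-fold. KLF10 lies outside the band for stimulation in shIKKE cells and for the lines with solvent, KLF4 for stimulation in control cells, KLF13 for the lines with stimulation and KLF3 for the lines in both treatments.

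Among the Sin3A-binding KLFs, KLF10, a known repressor of the inhibitory SMAD gene SMAD7, had the largest log2 differences of the 10 for stimulation in shIKKE cells and between the lines with solvent. It was measured by 1 probe set, which read 6901 in control cells with solvent, 17179 in control cells with stimulation, 1044 in shIKKE cells with solvent and 17419 in shIKKE cells with stimulation. The solvent arrays were thus far apart, and the stimulated arrays close together. With solvent the signal was 6.61 times lower in shIKKE cells than in control cells (log2 -2.71, percentile 0.0802 of all genes). Stimulation gave 2.49 times the solvent signal in control cells (log2 1.31, percentile 95.7) and 16.7 times in shIKKE cells (log2 4.04, percentile 99.8). With stimulation the lines differed by a log2 of 0.02. Among the 1372 genes in its level bin (all genes split by mean level into 10 equal bins), its changes with stimulation stood at percentiles 99.4 and 99.8.

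Other early genes also differed between the lines at rest. Of 18 immediate early factors measured, 10 were at least 2-fold lower in shIKKE cells with solvent and 1 was higher, with a median log2 difference of -1.77. With stimulation none was lower, 3 were higher and the median was 0.40. For stimulation, 7 of the 18 were at least 2-fold higher and 3 lower in control cells, against 16 higher and 1 lower in shIKKE cells. The 3 lower in control cells were MYC (7663 to 2839) and 2 genes that were higher in shIKKE cells, FOSB (1364 to 272, and 7.38 to 302) and ATF3 (1407 to 548, and 329 to 1110). The solvent differences of KLF10 and KLF4 and their responses in control cells rest on that same control solvent array. With 1 array per group, a feature of that array and the state of control cells at rest cannot be told apart. Set against the shIKKE solvent array, a baseline taken up after the data were seen, KLF10 in stimulated control cells was higher by a log2 of 4.02. That value holds the difference between the lines besides stimulation.

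KLF11, the closest relative of KLF10 and likewise TGF-β-inducible, gave signals within 2-fold in every comparison. Its brighter probe set read 225 and 206 in control cells and 191 and 301 in shIKKE cells, with solvent and stimulation in that order. The highest signal was thus that of the stimulated shIKKE array. Its other probe set stayed below the filter.

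KLF13, the regulator of CCL5, was lowest on the shIKKE stimulated array. Its brighter probe set read 4847 with solvent and 6623 with stimulation in control cells, and 4309 and 3265 in shIKKE cells. A second probe set read 782 and 1277, and 735 and 404. Both probe sets were higher with stimulation in control cells (log2 0.45 and 0.70) and lower in shIKKE cells (log2 -0.40 and -0.84). With stimulation shIKKE cells were below control cells by both (log2 -1.02 and -1.63), while with solvent the lines were near each other (log2 -0.17 and -0.09). The brighter probe set stood at percentile 2.27 of all genes for the stimulated lines, and at 0.510 of the 1372 genes in its level bin. After cyclic loess normalization its log2 difference was -0.99, just short of 2-fold. The remaining 2 probe sets stayed below the filter.

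KLF9, a gene known to be induced by glucocorticoid and thyroid hormones, was dim, with 2 of 5 probe sets past the filter. The brighter read 65.0 with solvent and 90.0 with stimulation in control cells, and 54.6 and 90.6 in shIKKE cells. The other read 31.7 and 68.2, and 22.8 and 72.2. Both were higher on the stimulated arrays in both lines, by log2 values of 0.40 and 0.85 in control cells and 0.61 and 1.23 in shIKKE cells, and the stimulated arrays of the lines were nearly equal (log2 0.01 and 0.07). The dimmer of these 2 passed the filter only through its stimulated arrays, so its higher values there were favoured by the filter. The probe sets below the filter gave log2 changes of -0.39, -0.10 and 1.05 in control cells, and -0.01, 0.21 and 0.03 in shIKKE cells. Signals this low vary widely in MAS5.

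Among the activating KLFs, KLF2 went in opposite directions in the lines. Its probe set read 913 with solvent and 1890 with stimulation in control cells, and 1392 and 1027 in shIKKE cells. The log2 change was 1.04 in control cells (percentile 93.0 of all genes) and -0.43 in shIKKE cells (percentile 15.1). The responses differed by a log2 of -1.47, at percentile 1.95 of all genes and 0.364 of the 1372 genes in its level bin. shIKKE cells were above control cells with solvent (log2 0.60) and below them with stimulation (log2 -0.87). A second KLF2 probe set read 6.8 to 41.7, below the filter. From the shIKKE solvent array as baseline, KLF2 in stimulated control cells was higher by a log2 of 0.44. That value holds the difference between the lines besides stimulation, so it shows only that the 2-fold call depends on the solvent array used.

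KLF4, a cell cycle brake in lymphocytes and a reprogramming factor, was highest in control cells with solvent. Its brighter probe set read 364 there, 85.4 in control cells with stimulation, 152 in shIKKE cells with solvent and 98.7 in shIKKE cells with stimulation. The lower signal with stimulation was seen in both lines, by a log2 of -1.93 in control cells (percentile 0.722 of all genes) and -0.56 in shIKKE cells (percentile 9.81). At rest shIKKE cells were below control cells by a log2 of -1.19, and with stimulation the lines differed by 0.18. From the shIKKE solvent array as baseline, KLF4 in stimulated control cells was lower by a log2 of -0.74, within 2-fold. Here too the value holds the difference between the lines. The second probe set read 9.5 at most. KLF4 is also a gene of myeloid and epithelial cells. The summed myeloid markers were 134 and 78.5 in control cells and 97.6 and 259 in shIKKE cells, with solvent and stimulation, and the epithelial sums were 141, 275, 126 and 240 in the same order. Of the myeloid markers that passed the filter, MPO was highest in control cells with solvent (62.2, 18.4, 2.45 and 49.1 in that order). It passed the filter only through that array, so its likeness to KLF4 there was favoured by the filter. CSF1R read 29.3, 8.69, 7.62 and 107, and ITGAM 42.3, 51.4, 87.5 and 103. The epithelial KRT8 read 118, 191, 114 and 220, and KRT18 read 23.1, 84.1, 12.3 and 19.9. CSF1R and KRT18 too passed the filter only through the array where each was highest. The other markers did not pass, among them the defining markers CD14 (8.10 at most) and EPCAM (32.5 at most). Their part in the KLF4 signal was not tested.

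KLF6, a broadly expressed growth regulator, was modestly higher with stimulation. Its brightest probe set read 1704 and 2519 in control cells and 1562 and 2029 in shIKKE cells, a log2 change of 0.56 and 0.37. The next brightest pair of probe sets gave 0.63 and 0.54 in control cells, and 0.28 and 0.49 in shIKKE cells. All 5 probe sets were higher with stimulation in control cells, from 0.44 to 1.32, and 3 of 5 in shIKKE cells, from -0.09 to 0.49. All 5 were lower in shIKKE cells than in control cells with stimulation, from -0.97 to -0.31. The dimmest of the 5 passed the filter only through the control stimulated array, which favours both of these directions. These probe sets share a target gene and an array, so they are no replicates of a condition.

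KLF7, first known from neurons and also a regulator in blood progenitors, was lowest in shIKKE cells with solvent. Its brightest probe set read 202 with solvent and 224 with stimulation in control cells, and 98.0 and 171 in shIKKE cells. The difference between the lines at rest was a log2 of -0.94, just short of 2-fold, and -1.04 with no pseudocount. A second probe set gave -1.18, but the other 3 of the 5 had the opposite sign, up to 0.77. The direction for KLF7 at rest thus differed between probe sets.

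Among the CtBP-binding KLFs, KLF3, a repressor that opposes other KLFs at shared sites, was higher in shIKKE cells by its brightest probe set. It read 60.1 with solvent and 146 with stimulation in control cells, and 180 and 494 in shIKKE cells. Each shIKKE array was above both arrays of control cells. shIKKE cells were higher by a log2 of 1.39 with solvent (percentile 98.2 of all genes) and 1.67 with stimulation (percentile 97.8), and stimulation gave 1.11 in control cells and 1.39 in shIKKE cells. The other 3 probe sets did not exceed 128 and went several ways. With solvent they gave log2 differences of 0.83, 1.46 and -1.01 between the lines, and with stimulation 1.38, 0.19 and 0.00. The values of 1.46 and 1.38 came from probe sets that passed the filter only through the shIKKE array concerned. With the median of its probe sets, KLF3 was within 2-fold in each of these 4 comparisons, between -0.08 and 0.69. The 2-fold call in control cells was also lost with a pseudocount of 50 (log2 0.83), with quantile normalization (0.82) and with cyclic loess (0.99). From the shIKKE solvent array the change was -0.28, which holds the difference between the lines besides stimulation.

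KLF12, a repressor related to KLF3, had 8 probe sets, 7 past the filter. The brightest read 3314 and 3212 in control cells and 2411 and 2590 in shIKKE cells. It was thus near level with stimulation (log2 -0.04 and 0.10) and somewhat lower in shIKKE cells (log2 -0.46 with solvent and -0.31 with stimulation). The dimmer probe sets spread widely, from -0.31 to 2.22 for stimulation in control cells. The largest of these values came from a probe set that read 16.1 with solvent and 126 with stimulation. It passed the filter only through stimulated arrays, so its rise was favoured by the filter. The second brightest probe set read 279 and 240 in control cells and 600 and 436 in shIKKE cells, opposite in direction to the brightest one (log2 1.07 and 0.82).

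Averaged over the lines, KLF10 was higher with stimulation by a log2 of 2.68 ± 0.68 (SE), KLF3 by 1.25 ± 0.26 and KLF4 lower by -1.24 ± 0.40, in a limma fit of line and stimulation over all 4 arrays. None passed at an adjusted p of 0.05, with adjusted p = 0.225 for KLF10, 0.180 for KLF3 and 0.311 for KLF4. Of 13717 genes 1 passed (0.00729%). At an unadjusted p under 0.05 there were 3 KLFs, these 3, and 13.8% of all genes. For the line, KLF3 had the largest average difference (log2 1.53 ± 0.26, adjusted p = 0.564 by limma), and KLF10 followed (-1.34 ± 0.68, adjusted p = 0.744). No KLF and 0 of all genes passed for the line (0%), and 1 KLF, KLF3, and 7.29% of all genes had an unadjusted p under 0.05. The model has 1 residual degree of freedom, the difference between the lines' responses, which is no error between replicates and which for KLF10 is large. A variance prior that follows the level lowered the SE of KLF10 for stimulation from 0.68 to 0.20. Its own difference of responses then carried little weight, and the p-values under that prior measure no spread between replicates. With a variance prior that follows the level, KLF10, KLF3 and KLF4 passed for stimulation (adjusted p = 2.97e-39, 0.0127 and 0.0220) and KLF10 and KLF3 for the line (6.93e-09 and 0.00349); over the 7 alternatives the adjusted p of KLF10 ran from 2.97e-39 to 0.404 for stimulation and from 6.93e-09 to 0.829 for the line. Over the same alternatives the adjusted p of KLF3 ran from 0.0127 to 0.825 for stimulation and from 0.00349 to 0.794 for the line, and that of KLF4 for stimulation from 0.0220 to 0.435.

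**Figure D3:**
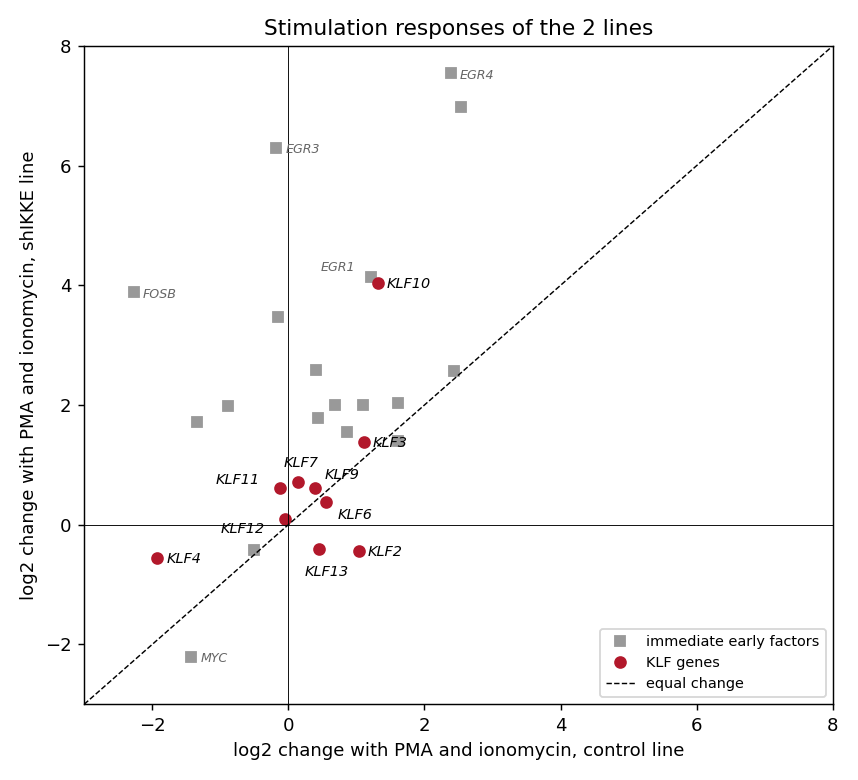
Log2 change with PMA and ionomycin in control cells (x) against shIKKE cells (y) for the 10 KLF genes (red circles) and 18 immediate early factors (grey squares); the dashed line marks equal change. KLF10 lies beside EGR1 (1.22 and 4.14), well above the dashed line, and KLF2, KLF6 and KLF13 lie below it.

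The genes whose pattern over the 4 arrays was most like that of KLF10 were EGR1, an early growth response factor, GJB2, a connexin gene, and SPRY4, an inhibitor of MAP kinase signalling. Likeness was the Euclidean distance between the 4 log2 values, each less the gene's own mean, and was computed for the KLFs that spanned at least 2 log2 units. The distances were 0.45, 0.56 and 0.66, against 2.58 for the nearest other KLF, KLF7. EGR1 read 9953 and 23198 in control cells and 1035 and 18503 in shIKKE cells. GJB2 read 226 and 666, and 47.3 and 655. For KLF3 the nearest were DPY19L2, HMGCS1, an enzyme of cholesterol synthesis, and AHNAK, a large scaffold protein gene, at 0.20, 0.21 and 0.23. HMGCS1 read 973 and 2432 in control cells and 3098 and 7964 in shIKKE cells. The distances describe 4 arrays only, and with this many genes some lie close to any pattern.

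**Figure D4:**
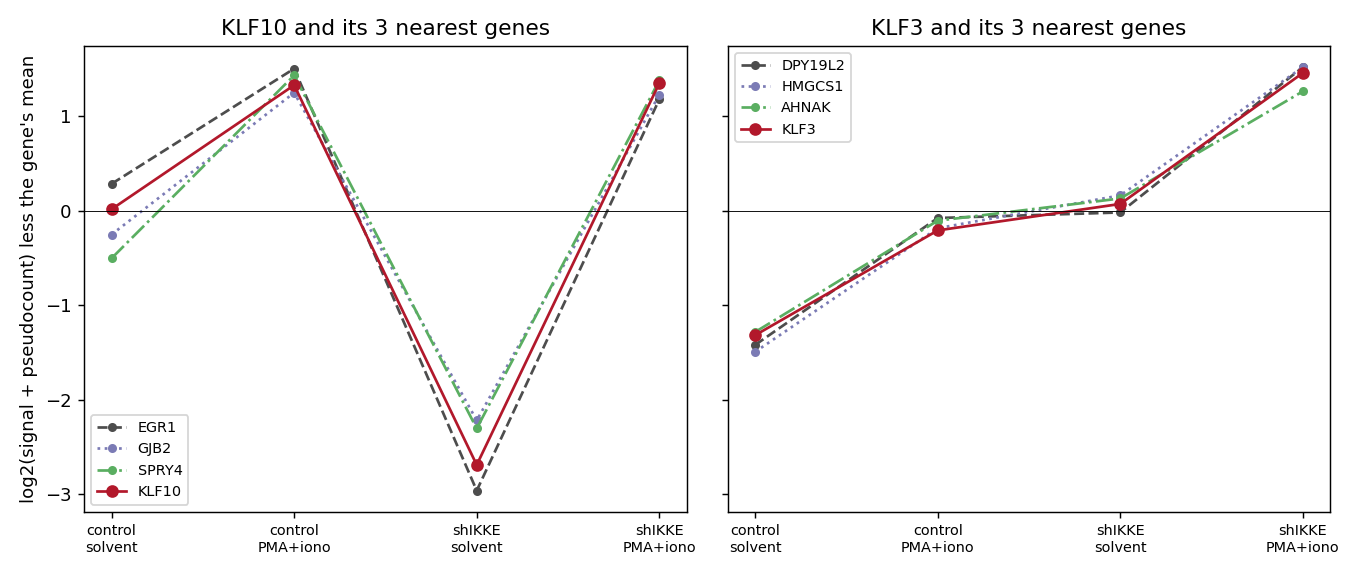
Log2(signal + pseudocount) less the gene's mean over the 4 arrays, for KLF10 (left) and KLF3 (right) in red and for the 3 genes nearest to each. EGR1, GJB2 and SPRY4 share with KLF10 the low value with solvent in shIKKE cells, and the neighbours of KLF3 share its higher values in shIKKE cells.

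Most partners through which KLFs act lay within 2-fold in each comparison, and the shares of all genes given above are the background to these counts. Of 13 corepressors, coactivators and ubiquitin ligases, all lay within 2-fold with stimulation in control cells (median log2 0.17), and 1 was at least 2-fold higher in shIKKE cells, the acetyltransferase gene EP300 (1236 and 2736, log2 1.14). EP300 was also higher with stimulation in control cells (1307 and 2471, log2 0.91), just short of 2-fold. The acetyltransferase gene KAT2B was at least 2-fold lower in shIKKE cells with solvent (1009 and 445, log2 -1.15). The CtBP gene CTBP1 read 7877 to 10062 and SIN3A 990 to 1169 over the 4 arrays. Of 9 SP factors listed, 6 passed the filter, and SP1, SP2, SP3 and SP4 lay within 2-fold throughout. SP8 was at least 2-fold higher and SP5 at least 2-fold lower with stimulation in both lines, at signals of at most 88.2. SP8 passed the filter only through the shIKKE stimulated array and SP5 only through the solvent arrays. The filter thus favoured the direction of each. The median of the 6 was 0.19 in each line.

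Of 7 other KLFs, KLF5, KLF15, KLF16 and KLF17 passed the filter. KLF5, a growth-promoting relative, read 222 and 98.7 in control cells and 125 and 113 in shIKKE cells, like KLF4 highest in control cells with solvent. KLF16 read 226 and 442, and 310 and 336. With stimulation KLF17 was at least 2-fold higher in both lines (log2 1.24 in control cells). It read 19.2 and 64.6 in control cells, and 7.04 and 28.3 in shIKKE cells. KLF17 passed the filter only through the control stimulated array, so its rise in control cells was favoured by the filter. Both of its shIKKE signals lay below the filter, and the change there only just reached 2-fold. KLF5 and KLF15 were at least 2-fold lower with stimulation in control cells (log2 -1.07 and -1.25). Neither was in shIKKE cells (-0.13 and 0.45).

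Of 10 measured inputs to KLF2 (11 listed), 1 was at least 2-fold lower with stimulation in control cells and none higher, and 1 was higher in shIKKE cells (medians 0.08 and 0.22). The first was MAP3K3, a kinase upstream of ERK5 (1181 and 500, log2 -1.22, and -0.04 in shIKKE cells), and the second HDAC7, a MEF2-binding deacetylase (190 and 593, log2 1.57, and 0.33 in control cells). MEF2D was lower in shIKKE cells in both treatments (log2 -0.76 with solvent and -1.19 with stimulation), and MEF2A and FOXO3 lay within 2-fold throughout. With solvent 1 of the 10 was at least 2-fold lower in shIKKE cells, HDAC7 (log2 -1.13), and the median was -0.52.

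Of 11 measured KLF2 targets and quiescence genes (15 listed), 2 were at least 2-fold higher and 3 lower with stimulation in control cells (median log2 -0.30), and 3 were higher and 1 lower in shIKKE cells (median -0.17). The lymph node homing receptor gene CCR7 read 92.0 and 4.8 in control cells and 47.5 and 16.1 in shIKKE cells. It passed the filter only through the control solvent array, so its lower signal with stimulation was favoured by the filter. The antiproliferative gene TOB1 read 1948 and 536, and 1141 and 799. The cell cycle inhibitor gene CDKN1A read 245 and 1312, and 101 and 935. S1PR1, the egress receptor gene that KLF2 drives, read 184 and 147, and 354 and 226. It was lower with stimulation in both lines (log2 -0.30 and -0.62), while KLF2 was higher in control cells and lower in shIKKE cells. With solvent, shIKKE cells were above control cells for both genes (log2 0.89 for S1PR1 and 0.60 for KLF2). With stimulation they were above them for S1PR1 (0.57) and below them for KLF2 (-0.87). Between the lines with solvent, 1 of the 11 was at least 2-fold higher in shIKKE cells, the chemokine receptor gene CXCR3 (log2 1.35). At least 2-fold lower were 3, the integrin gene ITGB7 (-2.18), the antiproliferative gene BTG1 (-1.91) and CDKN1A (-1.17). CXCR3 and ITGB7 were dim (23.9 and 82.8, and 84.6 and 7.66, in control and shIKKE cells), while BTG1 read 6343 and 1683. With stimulation all 11 lay within 2-fold, with a median of 0.44.

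Of 14 measured TGF-β pathway genes around KLF10 and KLF11 (15 listed), 4 were at least 2-fold higher with stimulation in each line, against 1 lower in control cells and none in shIKKE cells. At least 2-fold higher in each line were the receptor gene TGFBR2 (log2 1.05 and 1.66), the SMAD corepressor genes SKI (1.37 and 1.65) and SKIL (1.43 and 1.89), and TGIF1 (1.69 and 1.12). The inhibitory SMAD gene SMAD6 read 749 and 266 in control cells and 545 and 273 in shIKKE cells. SMAD7, a target that KLF10 represses, read 43.4 at most and did not pass the filter. The medians of the list were 0.25 and 0.18. Between the lines TGIF1 was at least 2-fold higher in shIKKE cells with solvent (log2 1.01), and with stimulation all 14 lay within 2-fold.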

How the data were processed

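The deposited intensities are MAS5 signals, not log-transformed, with 1 value for each probe set on each of 4 arrays; MAS5 is named in the submitters' processing notes, without version or scaling target. With 2% of values trimmed from either end, each array averaged 500.07. Per the labels' protocols, biotinylated cRNA was made from 6 ug of total RNA. The platform annotation gave 1 symbol for 41091 probe sets, several for 1801 and none for 11721, and 62 were array controls. Of those with 1, 41037 matched RefSeq by gene ID.

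Values were log2 of the signal plus 14.1, the 25th percentile of all signals. Probe sets were kept where the highest array reached 56.4, and the kept probe set with the highest mean represented a gene. The average effects were fitted by limma (version 3.58.1, R 4.3.3; lmFit and eBayes, two-sided, Benjamini-Hochberg over 13717 genes), after a test on simulated data. Python 3.11.15, pandas 2.3.3, numpy 2.4.6 and matplotlib 3.10.9 did the rest. Precision is limited by the number of arrays, and nothing in the labels tells whether cultures were separate.

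All 10 KLFs were named and all their probe sets taken, though not every probe set has its own readings in the text. Also named were up to 4 genes of each list that had the largest absolute change in the comparison described, with 2 exceptions. In the immediate early list FOSB, MYC and ATF3 were named as lower in control cells, and larger changes such as NR4A3 (log2 2.54 there) were not. Of the activation control genes only IKBKE was described. The others, IL2, CD69, TNF and NFKBIA, were at least 2-fold higher with stimulation in both lines. The 3 nearest genes of each KLF that spanned at least 2 log2 units were named too. Genes named beyond that (CTBP1, SIN3A, SP1, SP4, MEF2A, FOXO3, S1PR1, SMAD7, MYC, ATF3, CD14 and EPCAM) were chosen after their values were seen. The members and lists were chosen with earlier results of these data known. No protein sequence was used.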

Additional observations from a re-analysis of the deposited data

Results flagged for a closer look

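With 1 array per group, a difference of sign between the lines or between the treatments has no replicate check, and none of the differences below was tested. KLF2 was higher with stimulation in control cells and lower in shIKKE cells, and shIKKE cells were above control cells with solvent and below them with stimulation, with a difference of responses of log2 -1.47. KLF13 likewise was higher with stimulation in control cells and lower in shIKKE cells (difference of responses, log2 -0.85). For KLF10 the line difference was a log2 of -2.71 with solvent and 0.02 with stimulation (difference of responses, log2 2.73). KLF4 also had a negative line difference with solvent and a small positive one with stimulation (difference of responses, log2 1.37). The same differences of sign were small for KLF11 (log2 0.74), KLF9 (0.21) and KLF12 (0.15), each within 2-fold.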

How the results depend on the processing

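Of 50 pairs of a KLF and a comparison, each recomputed under 6 alternatives, 289 of the 300 values stayed on the same side of 2-fold and 11 did not. Leaving out the filter kept the same probe set for each KLF, so its 50 values were unchanged and are no check. The values of KLF2, KLF4 and KLF10 that were past 2-fold stayed past it under all 6. Each of these genes has 1 probe set past the filter, so the median of probe sets could not change its values either. Each gene was also taken as the median over its probe sets. KLFs at least 2-fold higher then numbered 1 with stimulation in shIKKE cells, 0 between the lines with solvent and 0 between them with stimulation. Of the 13717 genes, 1495, 610 and 857 were. Those at least 2-fold lower in the difference of responses numbered 3 (KLF2, KLF7 and KLF13), and 717 of the 13717 genes were. KLF3 with stimulation in shIKKE cells turned to -0.0796 on the log2 scale, and the median of the 10 KLFs there to -0.026. With cyclic loess 0 KLFs were at least 2-fold lower between the stimulated lines, against 397 of the 13717 genes. The shIKKE solvent array as baseline was added after the data were seen, and its values hold the difference between the lines besides stimulation. With it 2 KLFs were higher (KLF7 and KLF10) and 0 lower in stimulated control cells, against 8.02% and 4.38% of all genes. KLF3 turned to -0.28. In limma, the genes that passed for stimulation numbered 0 with no pseudocount, cyclic loess, no filter or the median of probe sets. Of the 13717 genes, 512 passed with a pseudocount of 50 and 1044 with a variance prior that follows the level. Among them were 2 KLFs (KLF10 and KLF3) with a pseudocount of 50, and 3 with that prior. For the line, 14 of the 13717 genes passed with a pseudocount of 50 and 232 with that prior, among which were 0 and 2 KLFs. No paired analysis by replicate number was possible because each group has 1 array and the labels carry no shared numbers; line is a term of the limma fit, so its stimulation effect is the mean of the changes within the lines. Leaving out an array was not possible with 1 per group.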
